A study of Mus musculus with 13 samples.

Results

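YBX3 KD in proliferating myoblasts was measured in 8 of the 13 RNAseq libraries of the series, the libraries that the labels place at 0 day. All came from C2C12, an immortal line of mouse myoblasts that can be induced to form myotubes, kept in medium with 10% fetal bovine serum and collected 48 h after reverse transfection of siRNAs. The 4 control KD libraries received nontargeting siRNAs and the 4 YBX3 KD libraries received siRNAs against YBX3, and each group holds replicates A to D, which the labels call biological replicates. No other treatment or genetic change separates the groups, and the replicates are cultures of a single line, not animals. The remaining 5 libraries (1 day, 2 control KD and 3 YBX3 KD) came from cells given 10% horse serum 24 h after transfection, and enter only the last comparison.

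YBX3 is a cold shock domain protein that binds DNA and RNA. It can repress or activate transcription in the nucleus, and in the cytoplasm it binds mRNAs and affects their stability and translation. It has been tied to muscle differentiation and to transcripts of amino acid transporters, which is why transporter mRNAs were of interest in this comparison.

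An siRNA directs the silencing machinery to an mRNA through its antisense strand, and bases 2 to 8 of that strand, the seed, can also pair with sites in the 3′ UTR of other mRNAs. The supplementary list of the study holds 4 nontargeting siRNAs and 4 siRNAs against mouse YBX3, each 19 bases long. Which of them went into these libraries, alone or pooled, is not given in the sources used here. In other assays the study used a pool against YBX3 as well as siRNAs 05 to 08 singly. It reports that the single siRNAs lowered YBX3 and SLC1A5 protein to a like degree in differentiating myoblasts. The antisense strands against YBX3 are shown because their seeds are compared with the changed genes further on, and capitals mark bases 2 to 8.
YBX3 siRNA 05: uAUAGUUGuagggacgucg
YBX3 siRNA 06: aUAGUAGCcgcgucuguac
YBX3 siRNA 07: uCCAUAUCcauuucugacg
YBX3 siRNA 08: aUACUUGCguggguuguuu
The complements of these strands lie in the coding sequence of Ybx3 on the minus strand of chromosome 6 (GRCm39), at chr6:131345399-131345417 for siRNA 05, chr6:131356348-131356366 for siRNA 06, chr6:131361477-131361495 for siRNA 07 and chr6:131357896-131357914 for siRNA 08. Of the 13 annotated coding transcripts of Ybx3, they are held by 11, 11, 13 and 12, respectively. The sense strand listed for siRNA 07 is not the complement of its antisense strand, occurs in 0 of these 13 transcripts and is also listed for a human siRNA.

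Total counts ranged from 33451547 to 71811371 per library, and 15573 of the 28850 genes with a count had enough counts for a test. The unit of level is CPM, which divides counts by the library total after TMM correction, whose factors ranged from 0.967 to 1.02. Of the markers of myoblasts, Cdh15 (115 to 163 CPM), Itga7 (361 to 566 CPM), Met (201 to 254 CPM) and Myf5 (31.4 to 73.4 CPM) were present in all 8 libraries. Myod1, the myogenic transcription factor, was at only 0.913 to 3.04 CPM, Pax7 had at most 9 counts and Msc at most 1 count in a library. Summed markers of macrophages and leukocytes were at 12.1 to 15.6 CPM in control KD and 13.2 to 14.2 CPM in YBX3 KD, with Ptprc and Cd3e too low for a test and Adgre1 without a count. Summed markers of adipocytes (15.1 to 27.5 and 14.1 to 20.2 CPM), of osteoblasts and chondrocytes (135 to 185 and 142 to 172 CPM) and of mature muscle fibres (53.4 to 99.0 and 68.5 to 110 CPM) had 0 called genes in edgeR's test, with 2 members at an unadjusted p under 0.05, both of the second list, of which DESeq2 with the pairing called 1 lower. Summed markers of endothelial cells were at 0.776 to 1.31 CPM in control KD and 1.03 to 1.69 CPM in YBX3 KD. Of the 4 macrophage and 2 endothelial markers tested, edgeR called 0 (3 and 1 had an unadjusted p under 0.05), and DESeq2 with the pairing called 1 macrophage marker higher. DESeq2 called 5.36% of the genes it tested higher and 6.24% lower. In edgeR's test, 3712 of all 15573 genes had an unadjusted p under 0.05, which is the background for such counts. Without replicate D, edgeR called 1 endothelial marker higher and 1 marker of osteoblasts and chondrocytes lower.

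Replicate D stood apart from the others in both groups. The summed level of 35 genes of DNA replication was 1513 CPM in control KD replicate D against 4041 to 4239 CPM in replicates A to C, and 2130 CPM in YBX3 KD replicate D against 3102 to 3433 CPM. Des, a muscle intermediate filament gene chosen here after its values were seen, was at 52.0 CPM in control KD replicate D and at 15.5 to 19.5 CPM in the other control libraries. The fit compared the 2 libraries of each letter with each other, and for the gene lists and for genes whose call turned on replicate D, values without it are given as well. In these bulk cultures, fewer cells of a kind and less RNA per cell cannot be told apart.

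Ybx3 itself (ENSMUSG00000030189, chromosome 6, minus strand, bases 131341810 to 131365448 in GRCm39) was at 316, 309, 335 and 265 CPM in control KD replicates A to D. In YBX3 KD it was at 46.3, 40.2, 43.0 and 37.8 CPM. The highest YBX3 KD library was far below the lowest control library, and the mean level was 13.7% of control (306 ± 29.4 against 41.8 ± 3.66 CPM, SD, n = 4 each). The log2 fold change was -2.87 ± 0.06 (SE), with an adjusted p of 1.29e-05 in edgeR's paired quasi-likelihood test. Without replicate D it was -2.89.

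The other cold shock domain genes did not pass edgeR's test with all pairs. Ybx1, the closest relative among them, was at 523 to 757 CPM in control KD and 468 to 598 CPM in YBX3 KD (log2 fold change -0.26 ± 0.06, adjusted p = 0.0833). It was lower in all 4 pairs, while its groups overlapped. Without replicate D its value was -0.28 with an adjusted p of 0.0243. Csdc2 and Carhsp1 had log2 fold changes of -0.30 and -0.14. Of the 8 genes listed, 6 could be tested, and Ybx3 was the only member edgeR called with all pairs. DESeq2 with the pairing called 2 of the 6 lower, and edgeR without replicate D called 3 lower.

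Across all genes, 567 of 15573 (3.64%) were called at an adjusted p under 0.05, of which 296 (1.9%) were higher and 271 (1.74%) lower in YBX3 KD. Most of the changes were small. The median log2 fold change was 0.56 among the higher genes and -0.44 among the lower genes, and 60 higher and 12 lower genes changed by more than 1 on the log2 scale. At the thresholds of the study (adjusted p under 0.001 and a fold change above 1.3), edgeR called 1 gene (0.00642%), which was Ybx3. At the same thresholds DESeq2, the tool of the study, called 374 genes with the pairing and 162 without it. The number of calls rests on the pairing and on every replicate: 61 genes were called without the pairing, 14 without replicate A, 3 without replicate B, 1 without replicate C and 2772 without replicate D. Ybx3 was called in each of these fits, and most other calls named here were lost without the pairing or without replicate A, B or C. All 567 genes moved in the same direction in the 4 pairs, against 32.7% of all genes tested. The groups did not overlap for 180 of the higher and 184 of the lower genes, against 9.4% of all genes. Because the genes were called by a test of these same pairs, both results follow largely from the selection and are no separate support.

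**Figure D1:**
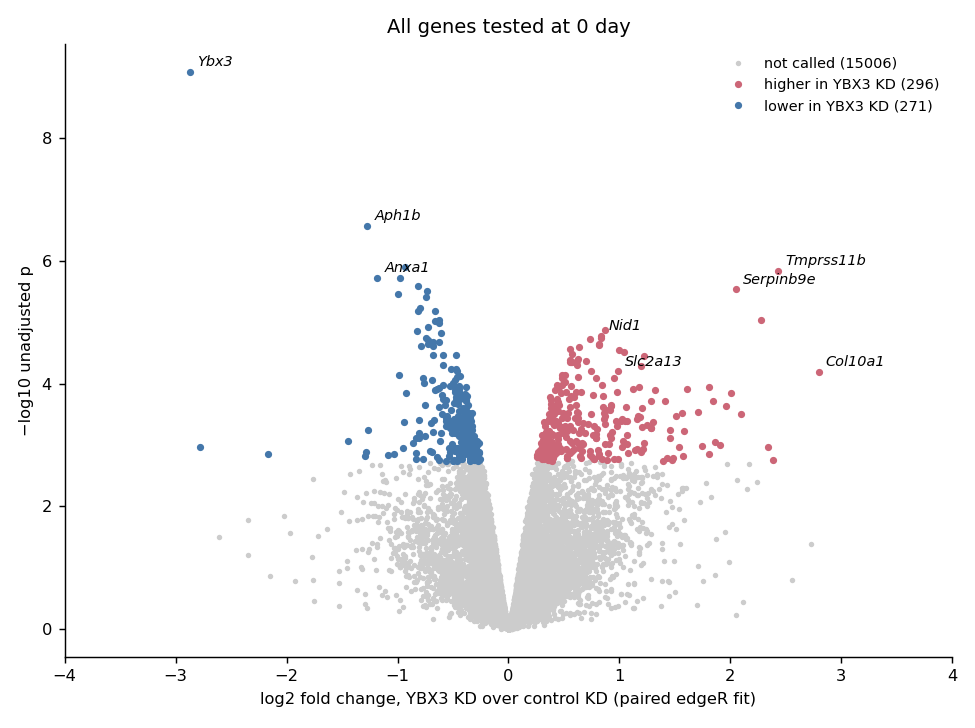
Log2 fold change of YBX3 KD over control KD (horizontal) against the -log10 of the unadjusted p of the paired edgeR test (vertical) for the genes tested at 0 day, with called genes in colour. Ybx3 stands alone at the top left, with the other lower genes below it, and 1 gene lies beyond the horizontal axis.

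Among the higher genes with the smallest p-values, Tmprss11b, a transmembrane serine protease, was at 0.982, 1.15, 0.582 and 2.48 CPM in control KD replicates A to D and at 4.82, 4.999, 4.12 and 14.1 CPM in YBX3 KD. All YBX3 KD libraries lay above all control libraries, and replicate D was the highest in each group. Its log2 fold change was 2.43 ± 0.16 (adjusted p = 0.00499). Serpinb9e and Serpinb9g, from a cluster of closely related genes of intracellular protease inhibitors, had log2 fold changes of 2.05 ± 0.15 and 2.27 ± 0.19. Reads shared between such close relatives may be split by the counting, so the values of single members are uncertain.

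Nid1, which encodes the basement membrane protein nidogen, was at 845, 733, 824 and 639 CPM in control KD replicates A to D and at 1328, 1310, 1465 and 1299 CPM in YBX3 KD. The groups were far apart, and the log2 fold change was 0.84 ± 0.08 (adjusted p = 0.0111). Thbs1, which encodes the matrix glycoprotein thrombospondin, was at 2646, 2419, 2735 and 2182 CPM in control KD and at 4292, 4721, 4816 and 3747 CPM in YBX3 KD. It too had no overlap (0.81 ± 0.08, adjusted p = 0.0111). Adam8, a cell surface metalloproteinase, rose by 0.84 ± 0.08 on the log2 scale, and Anxa8, a calcium-dependent phospholipid-binding protein, by 0.82 ± 0.08, both without overlap.

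In 4 further genes of this group the pairs moved alike although the groups overlapped, with replicate D higher in both. Lamb3, a laminin chain, was at 36.8 to 38.9 CPM in control KD replicates A to C and 92.2 CPM in replicate D, against 62.9 to 67.6 CPM and 137 CPM in YBX3 KD (0.73 ± 0.07, adjusted p = 0.0111). Csf2rb, the shared receptor chain for granulocyte-macrophage colony-stimulating factor and related cytokines, was at 3.27 to 4.61 CPM and 16.0 CPM in control KD, against 7.25 to 10.4 CPM and 27.6 CPM in YBX3 KD (1.00 ± 0.10, adjusted p = 0.0121). Ahnak2 and Podnl1 followed the same pattern with 0.87 ± 0.08 and 0.56 ± 0.06. Without the pairing, Lamb3 had an adjusted p of 0.505 and Csf2rb of 0.594.

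The remaining genes with large changes at a mean of 5 CPM or more were Angpt4, an angiopoietin (1.71 ± 0.25), Prl2c3, a prolactin family gene with near-identical copies that make its counts uncertain (1.57 ± 0.23), the vomeronasal receptor gene Vmn2r79 (2.01 ± 0.26) and Gm6093 (1.74 ± 0.32). Vmn2r79 was at 1.23, 1.29, 1.68 and 6.22 CPM in control KD and 6.13, 6.72, 9.15 and 12.5 CPM in YBX3 KD, so control replicate D overlapped the YBX3 KD libraries. Prl2c3 was lowest in replicate D in both groups, at 42.2 CPM against 162 to 218 CPM in control KD and at 237 CPM against 371 to 564 CPM in YBX3 KD.

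Among the lists, fibrillar collagens had the largest share of higher genes. These collagens form the fibres of the matrix and their associated collagens bind to them. Of 13 such genes tested, 6 were higher and 0 lower, with a median log2 fold change of 0.62 against 0.00 for all genes. Col5a2 was at 1587, 1571, 1482 and 1494 CPM in control KD replicates A to D and at 2301, 2519, 2340 and 2244 CPM in YBX3 KD. Its groups did not overlap and its log2 fold change was 0.62 ± 0.07 (adjusted p = 0.0148). The other chains of collagen V behaved alike, with 0.55 ± 0.07 for Col5a1 and 0.63 ± 0.06 for Col5a3, also without overlap. Col11a1, a chain of the related collagen XI, rose by 0.63 ± 0.07 in a comparison whose groups overlapped. Without replicate D, 10 of the 13 genes were higher, where 8.47% of all genes were higher and 9.22% lower. These shares, beside 1.9% and 1.74% with all pairs, are the background for each count given without replicate D.

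Of 15 network-forming and other collagens tested, 6 were higher and 0 lower, with a median of 0.40, where 1.9% of all genes were higher. Without replicate D, 7 were higher, where 8.47% of all genes were. The other 10 genes of the list had no or too few counts. Col7a1, whose product anchors the basement membrane, was at 255, 203, 244 and 499 CPM in control KD and at 531, 551, 702 and 839 CPM in YBX3 KD. Replicate D was the highest in each group, yet all YBX3 KD libraries exceeded all control libraries (1.19 ± 0.13, adjusted p = 0.0151). Col10a1, typical of hypertrophic cartilage, was low throughout, at 0.146 to 0.402 CPM in control KD and 1.52 to 1.89 CPM in YBX3 KD (2.79 ± 0.32, adjusted p = 0.0169). Col6a4 was also low, at 0.453 to 0.860 CPM against 1.41 to 1.69 CPM (1.31 ± 0.20, adjusted p = 0.0292). Col8a1 and Col4a2, the latter a chain of the basement membrane collagen IV, had log2 fold changes of 0.59 ± 0.08 and 0.38 ± 0.06.

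Of 34 matrix glycoproteins and matrix-modifying enzymes tested, 5 were higher and 0 lower (median 0.25), where 1.9% of all genes were higher. Without replicate D, 14 were higher (median 0.18), where 8.47% of all genes were higher. Ccn1, a secreted matricellular protein, varied between letters more than between groups. It was at 163, 255, 296 and 130 CPM in control KD and at 237, 367, 420 and 166 CPM in YBX3 KD, higher in every pair (0.48 ± 0.06, adjusted p = 0.0181). Ccn4 and Bmp1, the protease that trims procollagens, rose by 0.40 ± 0.07 and 0.31 ± 0.05 on the log2 scale. Markers of fibro-adipogenic progenitors, a matrix-producing cell type of muscle, gave 1 lower and 0 higher gene of 4 tested, and 2 lower and 1 higher without replicate D. Their summed level was 56.5 to 98.4 CPM in control KD and 36.9 to 72.6 CPM in YBX3 KD. Ly6a was lower (-0.80 ± 0.12, adjusted p = 0.0292), and Pdgfra was not called (-0.39 ± 0.09, adjusted p = 0.0646). Cd34 (-0.24, adjusted p = 0.691) was not called either. Mfap5, at 9 to 32 counts in a library, went the other way without a call (1.17, adjusted p = 0.126), so the markers did not move together.

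**Figure D2:**
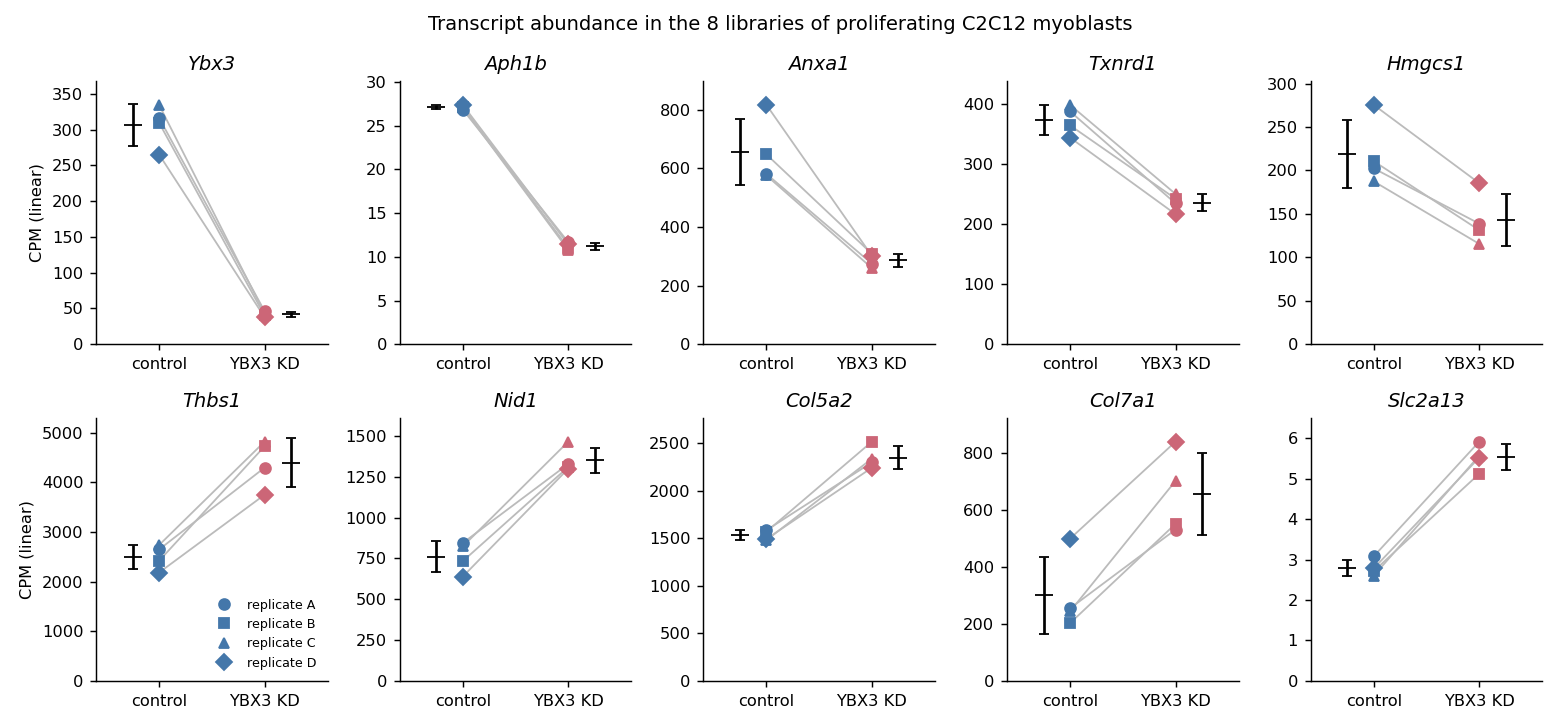
CPM (linear axes from 0) of 10 genes in control KD (blue) and YBX3 KD (red) libraries at 0 day, with a marker for each replicate letter, grey lines joining the libraries of a letter, and black bars for mean ± SD (n = 4). The lines fall in the upper row and rise in the lower row in every pair, and replicate D is the highest library of each group for Hmgcs1 and Col7a1.

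After Ybx3, the lower gene with the smallest p was Aph1b, a subunit of the gamma-secretase complex. It was at 26.9, 27.2, 27.1 and 27.4 CPM in control KD replicates A to D and at 11.7, 11.0, 10.8 and 11.4 CPM in YBX3 KD. Its groups were separated by many times their spread (-1.27 ± 0.06, adjusted p = 0.00208). Anxa1, a phospholipid-binding protein with anti-inflammatory action, was at 581, 647, 576 and 816 CPM in control KD and at 275, 308, 260 and 301 CPM in YBX3 KD (-1.18 ± 0.08, adjusted p = 0.00499). Foxk2, a forkhead transcription factor, was at 198, 174, 203 and 166 CPM in control KD and at 98.2, 89.4, 93.0 and 95.6 CPM in YBX3 KD (-0.98 ± 0.07, adjusted p = 0.00499). None of these 3 genes overlapped between groups.

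Dcun1d4, which promotes neddylation of cullins, fell from 29.9 to 33.9 CPM in control KD to 15.8 to 17.1 CPM in YBX3 KD (-0.93 ± 0.06). Qdpr, the dihydropteridine reductase that recycles tetrahydrobiopterin, fell from 30.5 to 36.1 CPM to 14.6 to 18.1 CPM (-0.99 ± 0.07). Purb, a single-stranded DNA- and RNA-binding protein that represses muscle genes, fell from 273 to 301 CPM to 165 to 180 CPM (-0.74 ± 0.06). Stim2, a calcium sensor of the endoplasmic reticulum, Cbx3, a heterochromatin protein, and Cpne3, a copine, had log2 fold changes of -0.81 ± 0.06, -0.73 ± 0.05 and -0.80 ± 0.06. Naf1, a factor for assembly of box H/ACA ribonucleoproteins, had -0.82 ± 0.07. In all of these 7 genes except Cbx3, Stim2 and Naf1 the adjusted p stayed under 0.01 without the pairing. For the exceptions it was 0.046, 0.0118 and 0.056.

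Of the 271 lower genes, 248 were protein coding and 21 were pseudogenes, and of the 296 higher genes 274 were protein coding and 2 were pseudogenes. The share of pseudogenes among all genes tested was not counted, so neither number can be read as an excess or a lack. Whether these shares differ was not tested. Fth1-ps, a pseudogene of the ferritin heavy chain, was the only pseudogene among the named genes (3.44 to 10.1 CPM in control KD, 1.64 to 4.96 CPM in YBX3 KD, -0.99 ± 0.12, adjusted p = 0.0181). Its reads cannot be told apart from those of near-identical copies.

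Many of the lower genes hold a match to the seed of siRNA 08. The reverse complement of bases 2 to 8 of its antisense strand reads GCAAGTA, and 6 sites in the 3′ UTR of lower genes with small p-values are shown on the mRNA strand, with the match in capitals, because these genes head the lower set.
Aph1b: cttcagctgaGCAAGTAaata
Dcun1d4: gtccccgtaaGCAAGTAttgc
Foxk2: atgtcacataGCAAGTAaact
Stim2: aaaaatctctGCAAGTAaaac
Cbx3: attcctttgaGCAAGTAagag
Qdpr: ggtgatgtaaGCAAGTAaaac
These sites lie at chr9:66686135-66686155 (minus strand) in Aph1b, chr5:73715456-73715476 (plus) in Dcun1d4, chr11:121199037-121199057 (plus) in Foxk2, chr5:54276563-54276583 (plus) in Stim2, chr6:51459765-51459785 (plus) in Cbx3 and chr5:45591505-45591525 (minus) in Qdpr, all in GRCm39. Purb holds 2 such matches and Cpne3 holds 1.

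A match to GCAAGTA, searched on the mRNA strand only, was present in the longest annotated 3′ UTR of 8.66% of the 12477 tested genes with such a region. Among 248 lower genes the share was 31.9% (79 genes), and among 272 higher genes it was 5.88% (16 genes). When the genes with a 3′ UTR, leaving out Ybx3 itself, were ranked by p, 17 of the first 20 lower genes held it and 0 of the first 20 higher genes. The median 3′ UTR was 2887 bases in these 20 lower genes but 771.5 bases in these 20 higher genes. The higher genes thus had less sequence in which a match could occur. Ybx3, which held no match, would have ranked first among the lower genes. Over the full sets too, the 3′ UTRs of lower genes were longer, with a median of 2285 bases against 1866 for all genes and 1905 for higher genes. Per kilobase of 3′ UTR there were 0.132 matches in lower genes, 0.0413 in all genes and 0.0279 in higher genes.

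For the other seeds, the shares in these sets lay closer together than for siRNA 08, with siRNA 06 next to it. Per kilobase of 3′ UTR, siRNA 06 had 0.0517 matches in lower, 0.0289 in all and 0.0197 in higher genes. The values were 0.0486, 0.0392 and 0.0558 for siRNA 05 and 0.0426, 0.0368 and 0.0427 for siRNA 07. siRNA 06 matched 11.7% of lower, 6.15% of all and 4.04% of higher genes, siRNA 05 matched 10.9%, 8.22% and 11.8%, and siRNA 07 matched 10.5%, 7.61% and 8.46%. For the nontargeting siRNAs 01 to 04, the shares among lower genes were 0.807%, 35.1%, 40.7% and 42.7%, beside 0.93%, 29.3%, 34.9% and 36.9% among all genes. A match to the seed of at least 1 of the 4 siRNAs against YBX3 was present in 126 of the 248 lower genes (50.8%), against 25.4% of all genes and 24.3% of higher genes.

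Over all 12477 genes, called or not, the 1080 genes with a match to the seed of siRNA 08 had a median log2 fold change of -0.05, against 0.00 for genes without. The 87 genes with 2 or more matches had a median of -0.11. The remaining 122 lower genes had no match to a seed of the 4 siRNAs, and their median log2 fold change was -0.435, beside -0.415 for the 126 genes with a match. For the seed of siRNA 08 alone, the median was -0.456 for the 79 lower genes with a match and -0.416 for the 169 without. All of these genes had passed the threshold of the call, which limits how far such medians can differ. Txnrd1 and Naf1 were among the genes with no match to any of the 4 seeds, and Anxa1 had a match only to that of siRNA 05. The part that seed pairing has in the fall of these genes was not tested.

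**Figure D3:**
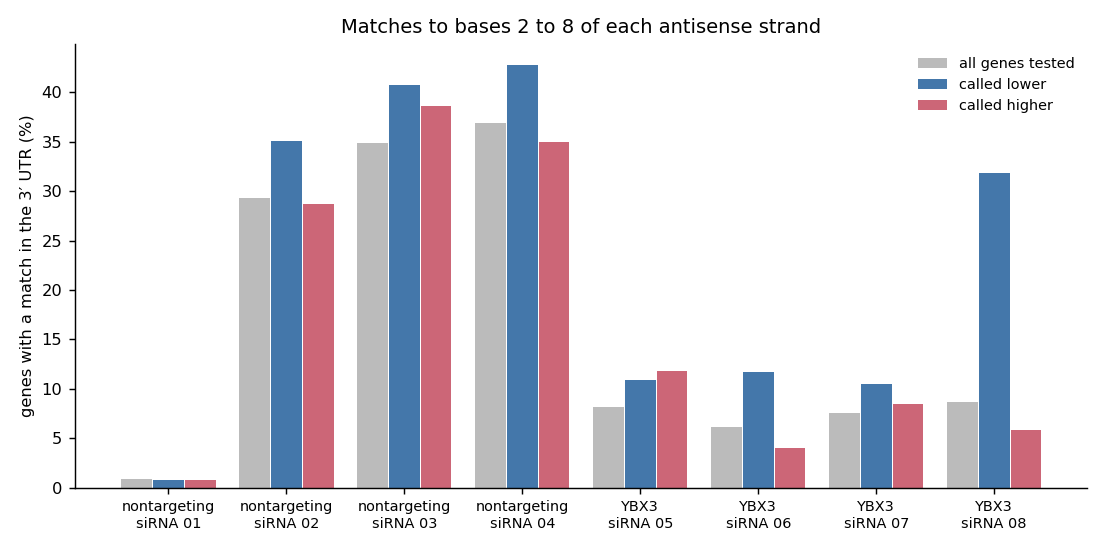
Share of genes (%) with at least 1 match in the longest 3′ UTR to bases 2 to 8 of the antisense strand of each listed siRNA, among all tested genes with a 3′ UTR (grey, 12477), lower genes (blue, 248) and higher genes (red, 272). The blue bar exceeds the grey bar most for YBX3 siRNA 08, at 31.9% against 8.66%.

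Lower genes also included a set of metabolic enzymes. Of 31 genes of cholesterol and fatty acid synthesis tested, 12 were lower and 0 higher, where 1.74% of all genes were lower, and the median log2 fold change was -0.28. Hmgcs1, which makes the precursor of mevalonate, was at 202, 211, 187 and 275 CPM in control KD replicates A to D and at 139, 131, 115 and 185 CPM in YBX3 KD (-0.62 ± 0.05, adjusted p = 0.00902). Replicate D was the highest in each group, and the lowest control library was just above the highest YBX3 KD library. Idi1 and Fdps, which act further along the same pathway, fell by 0.45 ± 0.06 and 0.50 ± 0.06 on the log2 scale, and the desaturase gene Fads1 fell by 0.47 ± 0.05. Without replicate D, 1 of the 31 genes was higher and 25 were lower, against 9.22% of all genes. A match to the seed of siRNA 08 was present in 2 of the 12 lower genes, Hmgcs1 among them.

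Of 29 targets of the oxidant-responsive factor NRF2 and enzymes of the pentose phosphate pathway, 5 were lower and 0 higher, with a median of -0.20, where 1.74% of all genes were lower. Without replicate D, 13 were lower and 3 higher, where 9.22% and 8.47% of all genes were. DESeq2 with all pairs called 13 of the 29 lower and 1 higher, where it called 6.24% and 5.36% of all genes. Txnrd1, thioredoxin reductase, was at 388, 365, 399 and 344 CPM in control KD and at 235, 243, 250 and 217 CPM in YBX3 KD (-0.66 ± 0.05, adjusted p = 0.0074). G6pdx, which opens the pentose phosphate pathway, was at 228, 212, 237 and 253 CPM and at 163, 165, 167 and 178 CPM (-0.46 ± 0.05, adjusted p = 0.0169). Pgd, the next dehydrogenase, fell by 0.48 ± 0.07, and Tkt, transketolase, by 0.64 ± 0.08. None of these 4 genes overlapped between groups. Nqo1, a quinone reductase and a standard NRF2 target, was at 92.6, 89.8, 88.3 and 137 CPM in control KD and 52.9, 61.2, 57.0 and 38.2 CPM in YBX3 KD. It did not overlap either but missed the threshold (-0.95 ± 0.21, adjusted p = 0.06), and without replicate D it passed with a smaller change (-0.66, adjusted p = 0.0021).

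Of 24 genes of glycolysis and lactate handling, 3 were lower and 0 higher (median -0.21), and 7 were lower and 2 higher without replicate D. The 3 were Pgam1 (-0.34 ± 0.06), Ldha (-0.34 ± 0.07) and the monocarboxylate transporter gene Slc16a1 (-0.26 ± 0.05), each without overlap. Aldoa had -0.45 ± 0.10 with an adjusted p of 0.059. Of 32 targets of ATF4 and aminoacyl-tRNA synthetases, 1 was higher and 2 lower (median -0.10), and without replicate D 1 was higher and 8 lower. Beside both lists, 1.9% of all genes were higher and 1.74% lower with all pairs, and 8.47% and 9.22% without replicate D. Psat1, an enzyme of serine synthesis, was at 195 to 215 CPM in control KD and 147 to 161 CPM in YBX3 KD (-0.44 ± 0.05, adjusted p = 0.0184), and Cebpg, a bZIP partner of ATF4 with 2 matches to the seed of siRNA 08, fell by 0.35 ± 0.06, while Phgdh, which opens serine synthesis, had -0.28 ± 0.06 with an adjusted p of 0.0569.

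Amino acid transporters held genes called in both directions. Of 26 tested, 1 was higher and 2 lower, with a median log2 fold change of -0.02, and without replicate D 4 were higher and 6 lower. Among all genes, 1.9% were higher and 1.74% lower with all pairs, and 8.47% and 9.22% without replicate D. Slc1a5, the glutamine and neutral amino acid transporter ASCT2, was at 34.0, 33.6, 31.6 and 24.9 CPM in control KD replicates A to D and at 25.4, 25.5, 25.5 and 22.1 CPM in YBX3 KD. It was lower in every pair, by the least in replicate D, whose control library fell just below 3 of the YBX3 KD libraries. The log2 fold change was -0.33 ± 0.07 with an adjusted p of 0.0489, which was -0.37 and 0.0078 without replicate D and 0.271 without the pairing. Its 3′ UTR held no match to a seed of the 4 siRNAs.

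Slc7a5 and Slc3a2, the light and heavy chains of the L1 amino acid transporter, did not pass the test. Slc7a5 was at 149 to 207 CPM in control KD and 149 to 173 CPM in YBX3 KD (-0.17 ± 0.09, adjusted p = 0.289), and without replicate D it was lower (-0.25, adjusted p = 0.0316). Slc3a2 was at 134 to 160 CPM and 127 to 155 CPM (-0.04 ± 0.05, adjusted p = 0.655). Slc1a4, a relative of Slc1a5, had 0.17 ± 0.06 (adjusted p = 0.166). The cationic amino acid transporter Slc7a2 was lower (-0.54 ± 0.11, adjusted p = 0.047), with a match to the seed of siRNA 08, and Slc7a7, a light chain for cationic and neutral amino acids, was higher (0.82 ± 0.16, adjusted p = 0.0457).

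Slc2a13, the proton myo-inositol cotransporter, was at 3.08, 2.72, 2.60 and 2.78 CPM in control KD replicates A to D and at 5.92, 5.12, 5.57 and 5.52 CPM in YBX3 KD. The groups did not overlap, and the 4 pairs differed little (198% of control, 0.98 ± 0.11, adjusted p = 0.0169). It was the only higher gene among 13 sugar and inositol transporters tested, of which Slc45a4 was lower (-0.34 ± 0.07, adjusted p = 0.0457) and 11 were not called. Without replicate D, 2 were higher and 1 lower, where 8.47% of all genes were higher and 9.22% lower, beside 1.9% and 1.74% with all pairs.

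Cytosolic ribosomal proteins make up the translating ribosome. Of 83 transcripts tested, 5 were lower and 0 higher, where 1.74% of all genes were lower. The median log2 fold change was -0.24, and 82 had a value below 0, while 50.5% of all genes lay above 0. The list median was -0.10, -0.16, -0.20 and -0.52 in pairs A to D, so replicate D had the most negative value. Without it, 17 genes were lower, where 9.22% of all genes were, and the median was -0.14. DESeq2 with all pairs called 28 lower. In the 5 libraries of 1 day, whose letters are not matched between groups, the list median was 0.04. Rpl4 was at 1357, 1409, 1438 and 1673 CPM in control KD and at 855, 909, 888 and 793 CPM in YBX3 KD (-0.77 ± 0.09, adjusted p = 0.0187), and it holds a match to the seed of siRNA 08. Rpl7a, Rpl10a and Rpl26 fell by 0.51 ± 0.09, 0.47 ± 0.09 and 0.39 ± 0.07 on the log2 scale, and Rpl10 had -0.18 ± 0.09 (adjusted p = 0.29). Ribosomal protein genes have many processed pseudogenes, and the division of reads among copies is uncertain.

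All 13 mitochondrially encoded mRNAs lay above control, where 50.5% of all genes did. Their median was 0.41, and 1 of the 13 passed edgeR's test, where 1.9% of all genes were called higher. Without replicate D, 8 were higher (median 0.52), where 8.47% of all genes were, and DESeq2 with all pairs called 6 higher. mt-Nd4, a subunit of complex I, was at 2649, 1630, 2283 and 1961 CPM in control KD and at 3436, 2587, 4455 and 2862 CPM in YBX3 KD (0.64 ± 0.11, adjusted p = 0.0343). The groups overlapped, and pair C differed most. mt-Nd4l and mt-Cytb had log2 fold changes of 0.63 ± 0.15 and 0.50 ± 0.11 with adjusted p-values of 0.0744 and 0.0544.

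**Figure D4:**
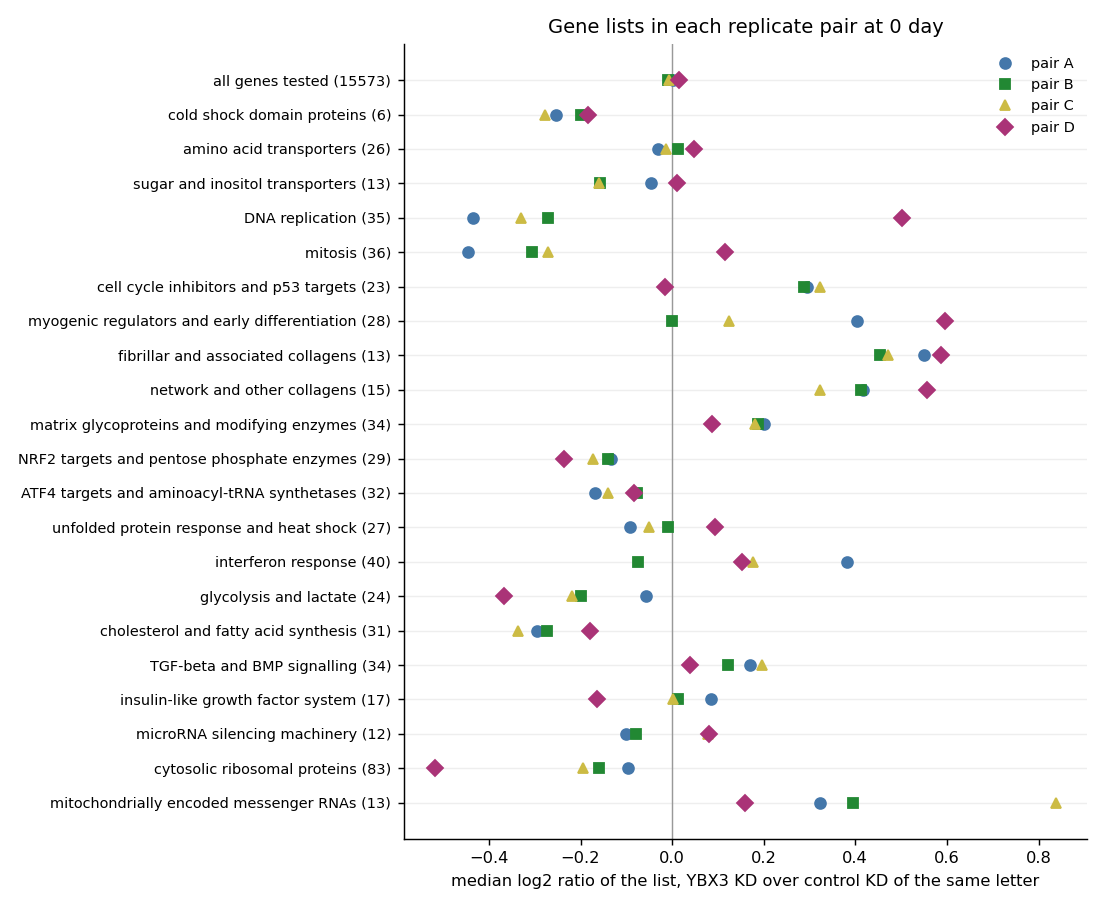
Median log2 ratio of each gene list (number of tested genes in brackets) in the 4 pairs of libraries with the same replicate letter; values right of 0 are higher in YBX3 KD. Collagen lists lie right of 0 and the cholesterol, NRF2 and ribosomal lists left of 0 in every pair, whereas pair D lies opposite to pairs A to C for DNA replication and mitosis.

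Cell cycle transcripts differed between pairs. For 35 genes of DNA replication the median log2 ratio was -0.435, -0.272 and -0.33 in pairs A, B and C and 0.501 in pair D. With all pairs, edgeR called 0 of the 35, and DESeq2 with the pairing also called 0. In edgeR's test, 2 of the 35 had an unadjusted p under 0.05, beside 3712 of all 15573 genes. Without replicate D, 28 were lower, where 9.22% of all genes were. Mcm7, a subunit of the replicative helicase, was at 263, 259, 274 and 101 CPM in control KD and at 180, 195, 190 and 126 CPM in YBX3 KD (-0.30 ± 0.14, adjusted p = 0.264), and its value without replicate D was -0.49 (adjusted p = 0.00255). Lig1, the replicative DNA ligase, followed it (-0.26 ± 0.11 with all pairs, -0.39 without replicate D).

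Of 36 genes of mitosis, 4 were lower and 0 higher with all pairs (median -0.23), where 1.74% of all genes were lower. Without replicate D, 33 were lower (median -0.33), where 9.22% of all genes were. DESeq2 with all pairs called 11 lower. The 4 were Cdc25b (-0.48 ± 0.08), Cdc25c (-0.41 ± 0.08), Ccnb2 (-0.43 ± 0.08) and Ube2c (-0.44 ± 0.08), which drive entry into mitosis or the destruction of its regulators. Ube2c was at 121, 126, 135 and 61.9 CPM in control KD and at 84.6, 91.5, 89.2 and 54.2 CPM in YBX3 KD. It was lower in each pair, but control replicate D lay below 3 of the YBX3 KD libraries, and without the pairing its adjusted p was 0.502.

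Of 23 cell cycle inhibitors and targets of p53, 3 were higher and 1 lower (median 0.24), where 1.9% of all genes were higher and 1.74% lower. Without replicate D, 13 were higher and 2 lower, where 8.47% and 9.22% of all genes were. Eda2r, a receptor induced by p53, was at 38.2, 37.1, 34.7 and 41.1 CPM in control KD and at 66.8, 71.4, 74.5 and 45.9 CPM in YBX3 KD. It had no overlap, and replicate D differed least (0.76 ± 0.15, adjusted p = 0.0478). Sesn2, a sestrin that is also a target of ATF4, and the nuclease gene Aen rose by 0.41 ± 0.08 and 0.37 ± 0.07, and the inhibitor Cdkn2d fell by 0.41 ± 0.08.

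Of 28 myogenic regulators and genes of early differentiation, 2 were higher and 0 lower (median 0.21), where 1.9% of all genes were higher. Without replicate D, 7 were higher and 1 lower, where 8.47% and 9.22% of all genes were. Mef2a, a MADS-box transcription factor of muscle, was at 140 to 154 CPM in control KD and 184 to 194 CPM in YBX3 KD (0.37 ± 0.05, adjusted p = 0.0218), and Chrna1, a subunit of the muscle acetylcholine receptor, rose by 0.36 ± 0.07. Myod1 was at 0.913, 1.04, 1.12 and 0.959 CPM in control KD and at 2.84, 2.07, 3.04 and 1.15 CPM in YBX3 KD. It did not overlap, with the smallest difference in pair D, and missed the threshold (1.11 ± 0.26, adjusted p = 0.0671), which it passed without replicate D (1.36, adjusted p = 0.00758). Of 8 myoblast markers tested, the adhesion gene Ncam1 was called higher (0.26 ± 0.05, adjusted p = 0.0478), and 3 were called higher without replicate D.

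Growth factor systems held a few called genes in each direction, where 1.9% of all genes were higher and 1.74% lower with all pairs. Of 34 genes of TGF-beta and BMP signalling, 4 were higher and 2 lower (median 0.16), and 13 were higher and 2 lower without replicate D. Fst, which encodes the activin antagonist follistatin, was at 0.475 to 1.20 CPM in control KD and 1.26 to 3.42 CPM in YBX3 KD (1.58 ± 0.26, adjusted p = 0.0335). Bmp4 and the latent TGF-beta binding protein gene Ltbp2 rose by 0.58 ± 0.10 and 0.45 ± 0.07, and Smad5, a signal transducer of BMP receptors that holds a match to the seed of siRNA 08, fell by 0.34 ± 0.05.

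Of 17 genes of the insulin-like growth factor system, 1 was higher and 2 lower (median 0.09). Without replicate D 1 was higher and 3 lower, where 8.47% of all genes were higher and 9.22% lower. Igf2r, the receptor that removes IGF2, was at 145, 143, 135 and 161 CPM in control KD and at 106, 81.0, 81.0 and 78.9 CPM in YBX3 KD (-0.76 ± 0.09, adjusted p = 0.0204). Igfbp5, a secreted binding protein of these factors, was at 692, 846, 628 and 1220 CPM and at 579, 424, 289 and 670 CPM (-0.81 ± 0.14, adjusted p = 0.0363), with overlapping groups and the smallest difference in pair A. Irs1, the adaptor of insulin and IGF receptors, rose by 0.48 ± 0.09.

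Of 12 genes of the microRNA silencing machinery, Tnrc6b (-0.48 ± 0.07), which holds a match to the seed of siRNA 08, and Prkra (-0.35 ± 0.07) were lower and 0 were higher. With all pairs, 1.74% of all genes were lower. Without replicate D, 2 of the 12 were lower and 1 higher, where 9.22% and 8.47% of all genes were. Of 27 genes of the unfolded protein response and heat shock, edgeR called Hspe1 alone (-0.27 ± 0.05, adjusted p = 0.0397), a share near the 3.64% of all genes. DESeq2 with the pairing and edgeR without replicate D each called 1 higher and 3 lower. Of 40 interferon-response genes, edgeR called 0, and 8 had an unadjusted p under 0.05, beside 3712 of all 15573 genes. DESeq2 with the pairing called 1 of the 40 higher and 1 lower. Without replicate D, edgeR called 5 higher and 1 lower. The antiviral gene Rsad2 had 0.56 ± 0.12 with an adjusted p of 0.0519. Actb, often taken as a reference gene, was at 3645 to 4322 CPM in control KD and 3316 to 3799 CPM in YBX3 KD (-0.16 ± 0.08, adjusted p = 0.252).

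The 1 day libraries allow the same genes to be followed in differentiating cells, with other control libraries. They are control KD replicates C and D and YBX3 KD replicates B, C and D, so the letters are not matched. The 1 day values were fitted without a block, so in them day and replicate make-up cannot be fully told apart. At 1 day Ybx3 was at 347 and 294 CPM in control KD and at 47.0, 71.5 and 28.7 CPM in YBX3 KD. Of the 296 higher genes, 291 could be tested in the 5 libraries of 1 day alone, and 278 (95.5%) lay above control there, with a median log2 fold change of 0.41. Of the 271 lower genes, 270 could be tested and 243 (90.0%) lay below control, with a median of -0.33. Among all genes tested at both times, 67.0% had the same direction. The lower genes that held a match to the seed of siRNA 08 had the same direction in 74 of 79 cases (93.7%), and those with no match to a seed of the 4 siRNAs in 118 of 122 (96.7%).

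A test of the difference between the time points, over all 13 libraries, called 0 of 16848 genes (0%), while 1859 had an unadjusted p under 0.05 and DESeq2 with the pairing called 22. Aph1b, Foxk2 and Anxa1 had log2 fold changes of -1.19, -0.91 and -1.07 at 1 day, close to their values at 0 day. Slc1a5 and Slc2a13 had -0.27 and 0.50. Col5a3 had 0.02 at 1 day, against 0.63 at 0 day, and the median of the fibrillar collagen list was 0.21. Igfbp5 had 0.37 at 1 day and -0.81 at 0 day. The median of the interferon list was 0.88 at 1 day, with 0.13 at 0 day. DNA replication and mitosis had medians of -0.58 and -0.65 at 1 day, with -0.13 and -0.23 at 0 day. For mitochondrially encoded mRNAs it was 0.81 at 1 day, with 0.41 at 0 day. Whether list medians differ between the days was not tested.

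**Figure D5:**
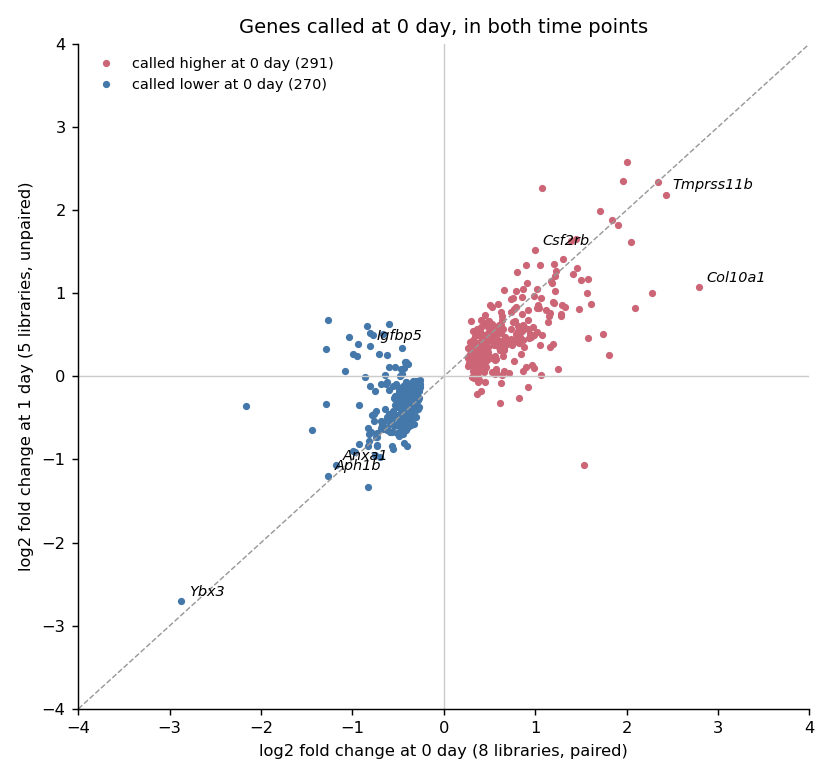
Log2 fold change at 0 day (horizontal, 8 libraries, paired) against that at 1 day (vertical, 5 libraries, unpaired) for the genes called at 0 day, with a dashed line of equality. The upper right holds 278 of the 291 higher genes and the lower left 243 of the 270 lower genes, Igfbp5 is among the others, and 1 gene lies beyond the axes.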

How the data were processed

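Stranded mRNA libraries from C2C12 cells were quantified by the authors with Salmon against GRCm39 (both per the submitters' processing notes), and the deposited values are estimated counts per gene, given as whole numbers, for 55642 genes. Of these, 54969 had a symbol in GENCODE vM39, which may not be the annotation release the authors used. Salmon divides reads among similar transcripts, so counts of near-identical genes share reads. Groups and replicate letters were taken from the labels.

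The 8 libraries of 0 day were fitted with edgeR's quasi-likelihood test (edgeR 4.0.16 in R 4.3.3, TMM factors, filterByExpr), with the replicate letter as a block and Benjamini-Hochberg adjustment over all 15573 genes tested, and a gene was called at an adjusted p under 0.05. Every adjusted p in the text comes from this test unless another tool is named. Log2 fold changes are YBX3 KD over control KD, and their SE is the absolute fold change divided by the square root of the F statistic. The gene list medians and the values without replicate D used the same design. The 1 day values came from the 5 libraries alone, without a block, and the difference between days from all 13 libraries. Libraries of the same letter deviated together from their group means, with correlations of 0.183, 0.383, 0.305 and 0.622 for A to D, although control replicate A correlated more with YBX3 KD replicate C (0.374). Total counts were 33451547 to 71811371. No per-sample value gives counting error beyond these counts. The p-values of the paired fit rest on how the difference between YBX3 KD and control KD varies among replicate letters, all cultures of a single line. Only the fit without the block uses the full spread between cultures.

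Genes named were Ybx3, the 12 called genes with the smallest p in each direction, the 5 with the largest change in each direction at a mean of 5 CPM or more, up to 4 members of each gene list with the smallest p, and genes the study names. Des and counts of single markers were chosen after their values were seen. The comparison, the gene lists and the tests were chosen with earlier results of these data known. Seed matches were counted in the longest annotated 3′ UTR of each gene. siRNA strands came from the study's list, and 3′ UTR sequences from the GRCm39 reference. The tests were tried on simulated counts. Alternatives were limma-voom (limma 3.58.1), DESeq2 1.42.0, other scaling, filters and thresholds, no block and left-out replicates. Results of 2 genes among the listed genes are not reported here.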

Additional observations from a re-analysis of the deposited data

Results flagged for a closer look

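In groups of 4 libraries, a library was taken as far from the others when its gap to the nearest, divided by the range of the group, was above Dixon's 95% critical value for 4 samples. Of 268 groups checked, 39 had such a library, of which 33 were in replicate D. Chance flags about 1 in 20 groups, and genes of the same library are not independent. All values are CPM unless stated.

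In control KD, replicate D was the highest library for Csdc2 (26.7), Serpinb9g (1.73), Lamb3 (92.2), Csf2rb (16.0), Angpt4 (14.5), Vmn2r79 (6.22), Col8a1 (162), Fads1 (227), Pgd (357), Tkt (145), Nqo1 (137), Aldoa (1807) and Sesn2 (31.1). It was the lowest for Cdc25b (61.4), Cdc25c (18.2), Mcm7 (101), Lig1 (63.7) and Ltbp2 (39.0). Its summed levels were the highest of the 4 for cell cycle inhibitors and p53 targets (2042), matrix glycoproteins (22830), cholesterol and fatty acid synthesis (8565), TGF-beta and BMP signalling (3575), myoblast markers (1530) and adipocyte markers (27.5). They were the lowest for DNA replication (1513), mitosis (2706) and the unfolded protein response and heat shock (11090).

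In YBX3 KD, replicate D was the highest library for Tmprss11b (14.1), Serpinb9g (12.3), Adam8 (102), Lamb3 (137) and Csf2rb (27.6), and the lowest for Slc1a5 (22.1). Replicate B was the highest for Anxa8 (133) and Rpl10 (889), and replicate A for Cebpg (36.4), Slc7a2 (30.6) and Igf2r (106). The total count of YBX3 KD replicate B, 71811371, was also far above the others, at 41868570 to 46843516.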

How the results depend on the processing

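Of the 567 genes called, 61 remained without the replicate block, and all 61 were among the 567. DESeq2 with the block called 1596 (556 shared), no filter on low counts 1108 (561 shared), and an adjusted p under 0.01 left 19. With both libraries of a letter left out, the count ranged from 1 (without C) to 2772 (without D, all 567 included), and with a single library left out and no block from 7 to 696. At the study's thresholds, 1 gene became 2 without the block, 374 and 162 by DESeq2 with and without it, 89 with no filter, 8 in the fit of all 13 libraries, 0 to 24 with a letter left out, and up to 3 with a library left out. The difference between days gave 22 genes by DESeq2 with the block and 0 to 1 with a letter left out. Of the 103 genes named, 57 lost their call without the block, 73, 81 and 83 without replicate A, B or C, and 0 without D, where 13 gained one. Ybx3 kept its call in each of these settings. Slc3a2, not called in any of these, had log2 fold changes of -0.10 to 0.0122 with 1 library omitted, the latter without the block and control replicate C (adjusted p = 0.988, edgeR), and no other named gene changed direction. The median of the fibrillar collagens was 0.55 without the block, and without replicate D, an alternative chosen after seeing the data, it was 0.50, with 0.18 for matrix glycoproteins. Matches to bases 2 to 7 were held by 39.9%, 25.4%, 38.3% and 52.4% of lower genes for siRNAs 05 to 08, beside 33.6%, 22.9%, 30.3% and 33.7% of all genes, and matches followed by A by 3.23%, 5.65%, 3.63% and 12.1%, beside 2.35%, 1.98%, 2.47% and 2.26% of all genes, since a shorter or longer match is more or less frequent. The causes of the other changes were not tested. Depth limits the genes of a few CPM, such as Col10a1 and Fst.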
